A study of Mus musculus with 4 samples.

Results

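The genes that define the Purkinje cell were followed in mouse cerebellum after short exposure to the insecticide clothianidin. The set comprised 10 genes, chosen by name, each represented by its probe set with the highest mean over the arrays, and all 10 were found among 19505 named genes. Cerebella came from male C57BL/6N mice aged 10 weeks. One group received clothianidin at 50 mg per kg per day by mouth for 4 days and the other received vehicle on the same days. All mice ran on a rotarod, a rotating drum that tests motor coordination, over those days, and brains were taken directly afterwards. The series held 4 arrays, clothianidin replicates 6 and 7 and vehicle replicates 7 and 9. Clothianidin is a neonicotinoid, an agonist of insect nicotinic acetylcholine receptors, and the series title calls the dose the no-observed-adverse-effect level. The labels name separate samples without saying whether animals were pooled, so p-values cover only the spread among the arrays, part of which may be technical.

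Purkinje cells are the large inhibitory neurons of the cerebellar cortex and its only output. They take excitation from parallel fibres of granule cells and from climbing fibres, and turn it into calcium signals that adjust synaptic strength during motor learning. They are recognised by strong expression of calcium-binding and signalling genes, and they form parasagittal stripes that differ in the antigen zebrin II, the product of Aldoc. Whole cerebellum was measured, so fewer Purkinje cells and less of a transcript per cell cannot be told apart.

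Values are log2 RMA summaries, on which a difference of 1 is a doubling. Array medians lay between 6.49 and 6.54, and the standard deviation over probe sets was 3.32 and 3.27 on clothianidin replicates 6 and 7 and 3.27 and 3.17 on vehicle replicates 7 and 9. Of the 10 genes, 8 had a mean level of 14 or above. The tissue label was checked against other markers. The granule cell gene Gabra6 was at 17.05 and 17.40 with clothianidin and 17.41 and 17.09 with vehicle. The forebrain transcription factor gene Emx1 was at 3.47 and 3.46 with clothianidin and 3.67 and 3.80 with vehicle, near the lowest values of the arrays (2.20 to 2.38). Of the other measured midbrain and forebrain markers, Pax7, Tbr1 and Lhx2 were below the array medians, and Barhl2, Tcf7l2 and Neurod6 were above them. Barhl2 was at 12.27 and 11.80 with clothianidin and 12.17 and 12.02 with vehicle, so these markers were not uniformly low. A marker of choroid plexus, Ttr, stood apart on clothianidin replicate 7, at 13.96 against 6.38 on clothianidin replicate 6, and at 5.70 and 5.67 with vehicle.

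Promoter sequences were available for 6 of the 10 genes, and are shown where they hold AGGTCA, the core motif that the nuclear receptor encoded by Rora shares with other nuclear receptors. Rora itself belongs to the set, and in the mouse Pcp2 and Pcp4 are among the transcripts reported to depend on it. The motif was searched on both strands, as AGGTCA and as TGACCT, in RefSeq windows of 300 bases (build GRCm38.p6, 250 bases before to 50 bases after each start site). Pcp2, Pcp4 and Dner held it, which is 3 of 6 genes, and Aldoc, Rora and Lhx1 had no match in their windows. Over all genes with a window, 16.3% of windows and 18.1% of genes held a match. A match describes these letters and is not a shown binding site. Capitals mark the motif in the sequences, which run 5′ to 3′ on the strand of the gene. The 4 windows of Pcp2 cover separate start sites and share bases, and the 2 shown hold its 2 separate matches.
Pcp2, chr8:3625498-3625797, minus strand: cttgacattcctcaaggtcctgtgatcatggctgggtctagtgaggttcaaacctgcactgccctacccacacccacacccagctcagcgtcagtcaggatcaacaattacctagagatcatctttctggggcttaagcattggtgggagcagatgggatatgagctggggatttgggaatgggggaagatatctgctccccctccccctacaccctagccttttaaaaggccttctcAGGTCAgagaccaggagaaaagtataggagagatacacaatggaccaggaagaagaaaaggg
Pcp2, chr8:3624987-3625286, minus strand: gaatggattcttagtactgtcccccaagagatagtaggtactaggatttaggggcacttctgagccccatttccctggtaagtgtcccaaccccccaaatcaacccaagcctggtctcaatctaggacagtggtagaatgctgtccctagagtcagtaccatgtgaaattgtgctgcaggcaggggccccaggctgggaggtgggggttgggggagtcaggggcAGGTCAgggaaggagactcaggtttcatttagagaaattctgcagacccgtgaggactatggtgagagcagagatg
Pcp4, chr16:96467356-96467655, plus strand: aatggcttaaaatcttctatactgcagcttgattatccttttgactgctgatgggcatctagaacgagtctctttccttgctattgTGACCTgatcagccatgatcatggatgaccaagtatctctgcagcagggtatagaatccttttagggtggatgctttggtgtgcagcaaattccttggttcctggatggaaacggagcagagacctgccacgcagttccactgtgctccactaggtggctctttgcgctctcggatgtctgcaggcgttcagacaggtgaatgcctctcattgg
Dner, chr1:84696172-84696471, minus strand: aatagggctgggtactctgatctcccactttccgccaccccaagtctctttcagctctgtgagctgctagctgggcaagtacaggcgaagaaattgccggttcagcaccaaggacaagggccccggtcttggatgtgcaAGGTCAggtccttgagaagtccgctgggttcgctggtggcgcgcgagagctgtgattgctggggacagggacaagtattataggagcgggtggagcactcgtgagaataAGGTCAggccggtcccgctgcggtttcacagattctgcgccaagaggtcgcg

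The Pcp2 matches lay 12 and 26 bases before the start sites of their windows. In Pcp4 the match was on the opposite strand, 164 bases before the start site, and Dner held 2 matches, 111 and 2 bases before its start. The 3 genes with a match had log2 differences, clothianidin minus vehicle, of 0.68 for Pcp2, 0.67 for Pcp4 and 0.48 for Dner. The 3 genes without one had -0.005 for Aldoc, 0.09 for Rora and 0.445 for Lhx1. With so few genes these values are given as a description only.

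The comparison asked whether Purkinje cell transcripts differ after clothianidin. Calb1, Pcp2 and Pcp4 were higher with clothianidin on both arrays, by about 1.6-fold. Car8, Ppp1r17 and Dner were also higher on both arrays, by smaller amounts or on the strength of a single array, while Aldoc, Rora, Lhx1 and Foxp2 overlapped between the groups. No gene passed the test. In limma the adjusted p was 0.997 for each of the 10, and 0% of 22206 probe sets passed an adjusted p of 0.05. A limma unadjusted p under 0.05 was reached by 1 of the 10 genes, Calb1, against 4.23% of all probe sets (940). A linear model without moderation gave 8 adjusted calls, none of them a gene of the set. Its lowest adjusted p, 2.43e-29 on 2 residual degrees of freedom, requires a residual spread near 0, as when rounded values tie within each group. These calls are therefore not read as changes. Over the 14 alternative settings, the number of the 10 genes with an unadjusted p under 0.05 varied. It ran from 0, as after quantile normalization, to 3 with an intensity trend in the variance prior. Calb1 was under 0.05 in 8 of them and in none of the 4 that left out an array, with limma unadjusted p between 0.0663 and 0.154. With 2 arrays against 2, an exact permutation test of a single value cannot go below p = 0.333 (two-sided).

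Calb1, Pcp2 and Pcp4 had the largest differences among the 10 genes, each at its brightest probe set. Calb1, which encodes the calcium buffer calbindin, was at 16.51 and 16.30 on clothianidin replicates 6 and 7 and at 15.74 and 15.75 on vehicle replicates 7 and 9. The clothianidin arrays were both above the vehicle arrays, with a gap of 0.55 between the groups. Its means were 16.41 ± 0.15 with clothianidin and 15.75 ± 0.01 with vehicle (SD, n = 2 each), a log2 difference of 0.66 (standard error 0.27) and a 95% interval of 0.04 to 1.28 (limma unadjusted p = 0.0404). It was also the gene whose difference depended least on any single array among the 3 largest, lying between 0.555 and 0.765 when each array was left out in turn.

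Pcp2, the L7 gene, encodes a modulator of inhibitory G proteins and was at 16.68 and 17.18 with clothianidin and at 16.40 and 16.10 with vehicle. The groups were 0.28 apart, and clothianidin replicate 7 was the highest array. Its log2 difference was 0.68, or 1.60-fold, with a standard error of 0.30 (limma unadjusted p = 0.0548). Leaving out clothianidin replicate 7 gave 0.43, and leaving out replicate 6 of that group gave 0.93.

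Pcp4, which encodes a small regulator of calmodulin, was at 16.54 and 17.31 with clothianidin and at 16.35 and 16.15 with vehicle. Replicate 7 of the clothianidin group was again far above the other arrays, and replicate 6 stood 0.19 above the nearer vehicle array. The log2 difference was 0.67 with a standard error of 0.33 (limma unadjusted p = 0.0762). It was 0.29 without clothianidin replicate 7, so its size rested on that array.

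**Figure D1:**
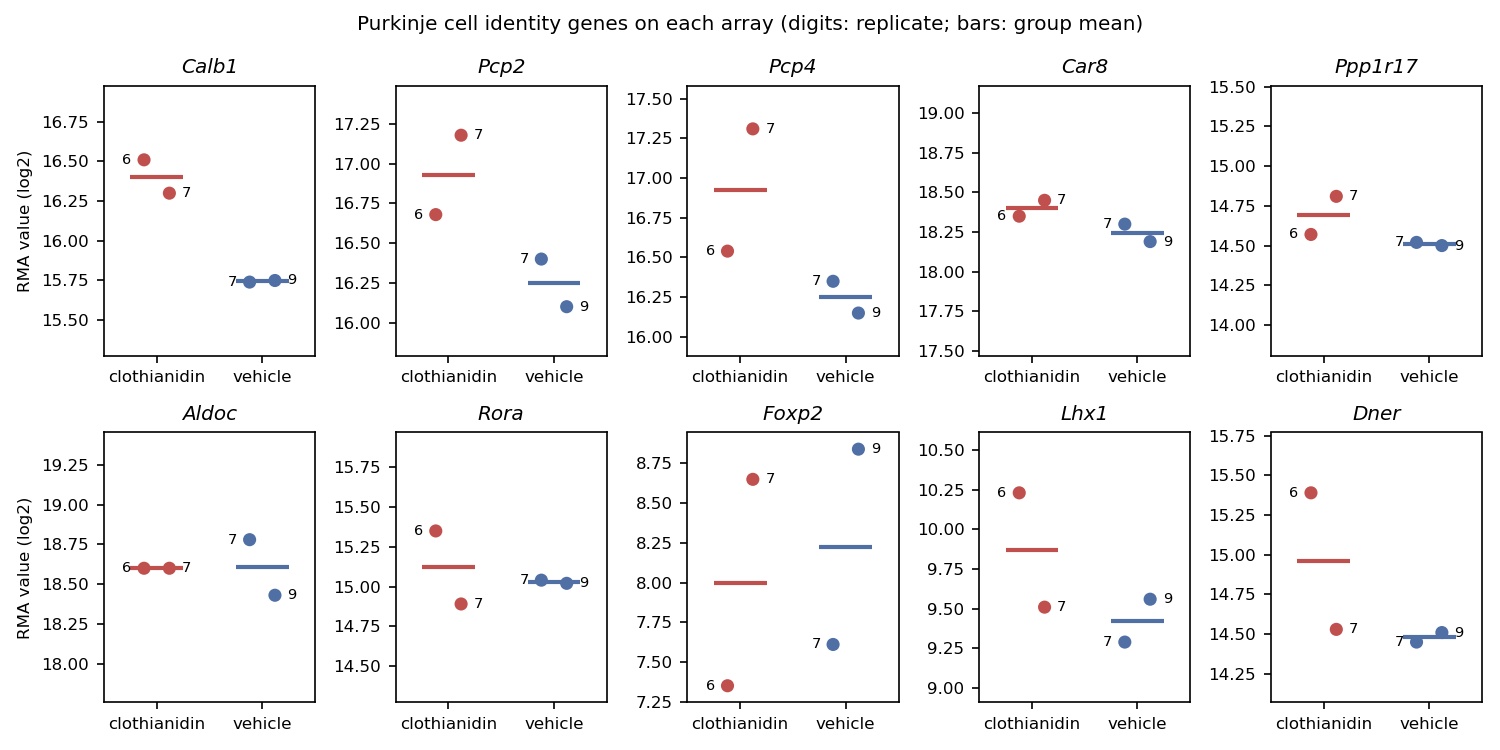
Log2 RMA value (vertical axis) of each Purkinje cell identity gene on the clothianidin arrays (left) and vehicle arrays (right), with points labelled by replicate and bars at the group mean. All panels span the same number of log2 units. Calb1, Pcp2 and Pcp4 show the widest separation, and Foxp2 has a low and a high array in each group.

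Car8 and Ppp1r17 gave the same order with much smaller steps. Car8, which encodes a carbonic anhydrase relative without enzyme activity that binds the inositol trisphosphate receptor, was at 18.35 and 18.45 with clothianidin and at 18.30 and 18.19 with vehicle. The groups were 0.05 apart and the log2 difference was 0.155 with a 95% interval of -0.46 to 0.77. Ppp1r17, known as G-substrate, is a target of cyclic GMP-dependent kinase that inhibits protein phosphatases, and was at 14.57 and 14.81 with clothianidin and at 14.52 and 14.50 with vehicle. Its log2 difference was 0.18 with a standard error of 0.27, and 0.06 when clothianidin replicate 7 was left out.

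The position of these genes on the array scale was noted because RMA values have an upper end. The brightest probe set of each array lay between 19.86 and 19.91. Only 16 and 18 probe sets were brighter than Car8 on the clothianidin arrays and 22 and 24 on the vehicle arrays. For Aldoc the numbers were 13 and 13 with clothianidin and 12 and 17 with vehicle. Whether differences of genes this bright are compressed was not tested.

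Dner and the transcription factor genes Lhx1 and Rora were high on the other clothianidin array. Dner encodes a transmembrane ligand of Notch on Purkinje cells that acts on Bergmann glia, and was at 15.39 and 14.53 with clothianidin and at 14.45 and 14.51 with vehicle. Only clothianidin replicate 6 stood clear, since replicate 7 was 0.02 above the nearer vehicle array. Dner differed by 0.48 on the log2 scale (standard error 0.34), and by 0.05 when that array was left out.

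Lhx1, a LIM homeodomain factor gene of Purkinje cell development, was at 10.23 and 9.51 with clothianidin and at 9.29 and 9.56 with vehicle. The groups overlapped, and the difference of 0.445 was 0.085 without clothianidin replicate 6. Rora, whose loss causes the staggerer phenotype in mice with stunted Purkinje cells, was at 15.35 and 14.89 with clothianidin and at 15.04 and 15.02 with vehicle. The vehicle values lay between the clothianidin values, and the log2 difference was 0.09 with a 95% interval of -0.58 to 0.76.

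Rora was the only gene of the set with further probe sets, and these disagreed in size. The second one was at 14.08 and 14.03 with clothianidin and at 13.86 and 13.57 with vehicle, a log2 difference of 0.34. The third, at a much lower level, was at 7.49 and 6.83 with clothianidin and at 6.30 and 6.01 with vehicle, a log2 difference of 1.005, standard error 0.32 (limma unadjusted p = 0.0140, adjusted p = 0.997). Both of these were higher on both clothianidin arrays, where the brightest probe set overlapped. Their identifiers mark both as unmapped, unlike that of the brightest probe set, and which transcripts they measure was not tested.

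Foxp2, a forkhead transcription factor gene of Purkinje cells and of other brain nuclei, was the least like the rest. It was at 7.35 and 8.65 with clothianidin and at 7.61 and 8.84 with vehicle. Each group had a low and a high array, more than 1 log2 unit apart, and the log2 difference was -0.225 (standard error 0.52). Dropping clothianidin replicate 6 gave 0.425 and dropping clothianidin replicate 7 gave -0.875, so its direction depended on which array was kept.

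**Figure D2:**
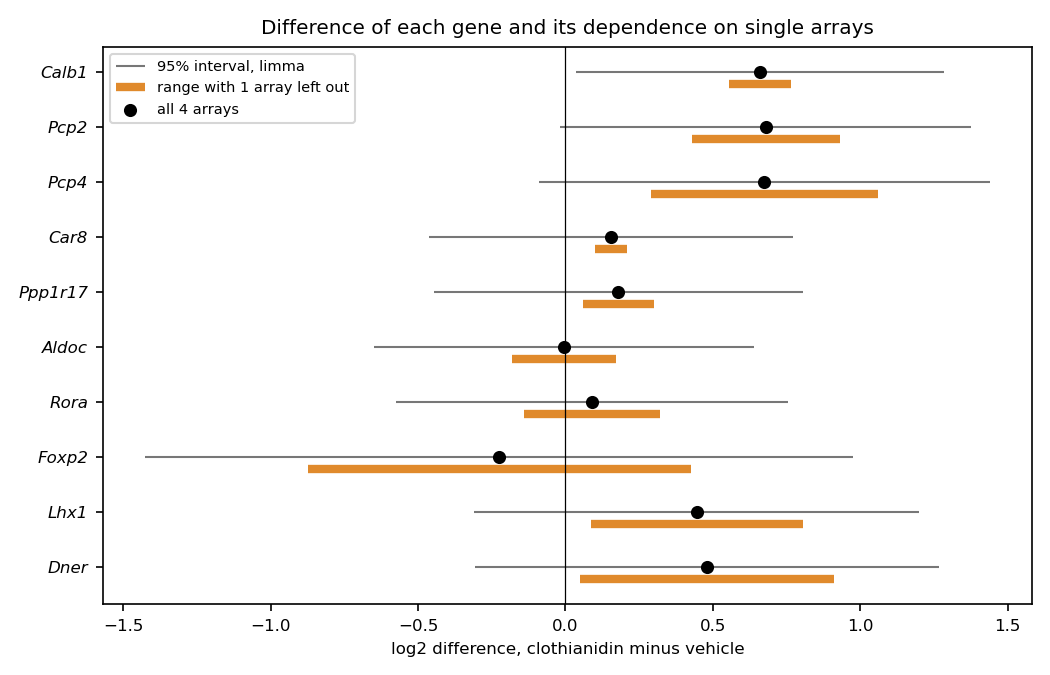
Log2 difference, clothianidin minus vehicle (horizontal axis), of each gene from all 4 arrays (points), with the 95% interval from limma (thin lines) and the range when each array is left out in turn (thick bars). The interval of Calb1 (0.04 to 1.28) is above 0, the other intervals include 0, and the thick bars of Aldoc, Rora and Foxp2 cross 0.

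The groups did not overlap, with clothianidin higher, for 6 of the 10 genes, where 15.1% of all probe sets behaved so. None of the 10 was lower on both arrays, where 15.5% of all probe sets were. In all, 8 genes had a higher mean with clothianidin and 2 a lower one, with a median log2 difference of 0.31, beside -0.01 over all probe sets. These counts describe a set chosen with earlier results known.

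The level of the genes and the scaling both touched this count. Among the 699 probe sets with a mean of 14 or above, 26.5% were higher without overlap and 8.87% lower, and the median log2 difference was 0.085. These bright probe sets deviated from their own means by medians of 0.10 and -0.03 on clothianidin replicates 6 and 7 and of 0.02 and -0.12 on vehicle replicates 7 and 9. After a further quantile normalization 4 genes, Calb1, Pcp2, Pcp4 and Car8, stayed apart, beside 16.0% of all probe sets higher without overlap. After cyclic loess normalization 3 did, Calb1, Pcp2 and Pcp4, beside 16.1% of all probe sets. The log2 differences of these 3 genes were 0.545, 0.58 and 0.57 after quantile normalization and 0.59, 0.62 and 0.61 after cyclic loess.

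Set array against array, most of the genes differed in the same direction between the groups, and were split within each group. Clothianidin replicate 6 was higher than vehicle replicate 7 for 8 of the 10 genes and higher than vehicle replicate 9 for 9, with median differences of 0.235 and 0.36. Clothianidin replicate 7 was higher than vehicle replicate 7 for 8 genes and higher than vehicle replicate 9 for 7, with median differences of 0.255 and 0.215. Over all probe sets, 47.2% to 51.5% were higher in these 4 pairs. Between the clothianidin arrays replicate 6 was higher for 4 genes, lower for 5 and equal for 1, and between the vehicle arrays replicate 7 was higher for 6 and lower for 4. The 4 pairs share arrays and are not independent.

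Within the clothianidin group the genes did not move as a unit. Replicate 7 minus replicate 6 was 1.30 for Foxp2, 0.77 for Pcp4, 0.50 for Pcp2, 0.24 for Ppp1r17 and 0.10 for Car8. The same difference was -0.86 for Dner, -0.72 for Lhx1, -0.46 for Rora and -0.21 for Calb1. Markers of other cells moved on these arrays too. Granule cell markers (14 measured) had median deviations of 0.27 and -0.19 on clothianidin replicates 6 and 7 and 0.06 and -0.14 on vehicle replicates 7 and 9, and interneuron markers (11 measured) 0.26 and -0.22 with clothianidin and -0.02 and -0.12 with vehicle. Both lists were higher on clothianidin replicate 6 than on replicate 7, as Dner, Lhx1 and Rora were. Their part in the result was not tested.

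Choroid plexus markers were uneven on the array where Pcp2 and Pcp4 were highest. Of 8 markers 5 were higher with clothianidin and 3 lower. The mean level of the list was 6.12 and 7.36 on clothianidin replicates 6 and 7 and 6.15 and 5.83 on vehicle replicates 7 and 9. The median deviations on the same arrays were -0.04, 0.13, 0.00 and -0.26. Ttr alone was 7.58 higher on clothianidin replicate 7 than on replicate 6, while Otx2, Clic6 and Slc4a5 were lower there. Beside Ttr, the potassium channel gene Kcnj13 was at 6.97 and 8.92 with clothianidin and 6.99 and 6.73 with vehicle, and the folate receptor gene Folr1 at 5.24 and 6.05 with clothianidin and 4.62 and 4.92 with vehicle. The tight junction gene Cldn2 was at 3.31 and 3.33 with clothianidin and 4.35 and 3.37 with vehicle. Without replicate 7 of the clothianidin group, Calb1 differed by 0.765, and the part of the choroid plexus signal in the values of Pcp2 and Pcp4 was not tested.

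**Figure D3:**
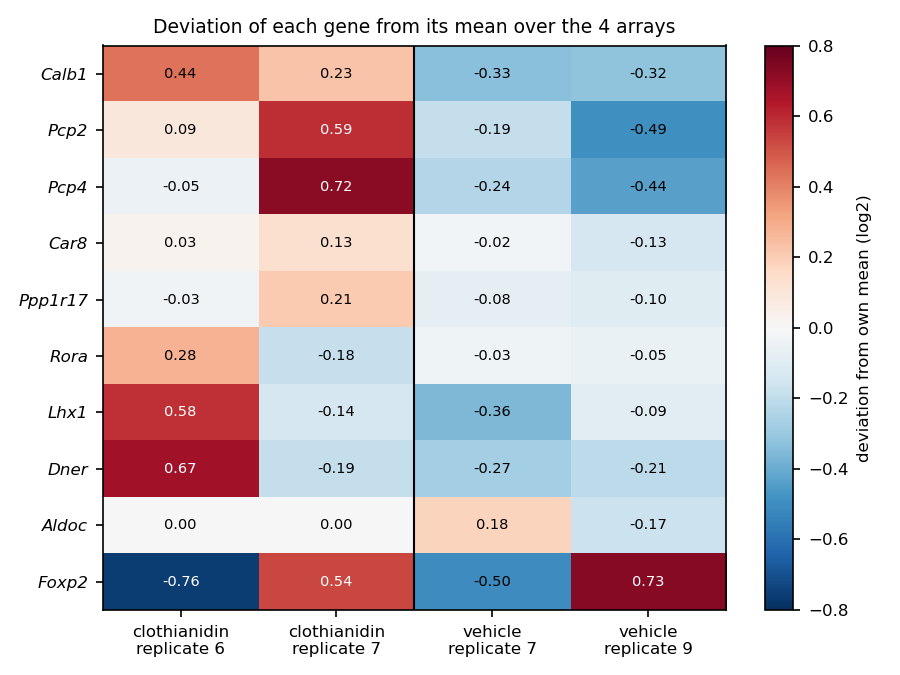
Deviation of each Purkinje cell identity gene from its own mean over the 4 arrays, in log2 units, with the clothianidin arrays left of the black line and the vehicle arrays right of it. Calb1 is positive on both clothianidin arrays (0.435 and 0.225), Pcp2 and Pcp4 peak on clothianidin replicate 7, and Lhx1 and Dner peak on clothianidin replicate 6.

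Likeness was measured as the root mean square difference between centred profiles over the 4 arrays, which is smallest for genes that vary little. The nearest of the 45 pairs were Car8 with Ppp1r17 (0.0602), Lhx1 with Dner (0.0909) and Pcp2 with Pcp4 (0.102). The median over the pairs was 0.364, and the farthest pair was Foxp2 with Dner (0.937). Aldoc lay nearest to Car8 (0.122), which also varied little, and farthest from Foxp2 (0.732).

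The median profile of the set deviated by 0.06 and 0.17 on clothianidin replicates 6 and 7 and by -0.21 and -0.15 on vehicle replicates 7 and 9. Of 9866 other genes at or above the median level, the nearest with a gene name were Meis3, a homeobox factor gene, Hbp1, an HMG-box factor gene, and Ndufb10, a subunit gene of respiratory complex I, with differences of 0.0367, 0.0381 and 0.0412. Cacng2, which encodes the AMPA receptor partner stargazin, and Papolg, a poly(A) polymerase gene, followed at 0.0415 and 0.0428. Cacng2 was at 15.20 and 15.37 with clothianidin and 14.96 and 15.00 with vehicle. No gene of the set itself was as near, since 180 other genes were nearer than Ppp1r17, 272 nearer than Car8 and 9649 nearer than Foxp2. Many genes outside the set lay nearer to its median profile than its own genes did. That profile deviates little and the measure favours genes that vary little, so this order says little about the set.

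The zebrin stripe gene Aldoc did not follow Calb1, Pcp2 and Pcp4. Aldoc encodes the glycolytic enzyme aldolase C, which marks the zebrin-positive Purkinje cells and is also made by astrocytes and Bergmann glia. It was at 18.60 and 18.60 with clothianidin and at 18.78 and 18.43 with vehicle. The clothianidin values lay between the vehicle values, the log2 difference was -0.005 (standard error 0.28), and the 95% interval was -0.65 to 0.64. The upper end came close to the difference of Calb1, 0.66, and the difference between these genes was not tested.

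Other genes of zebrin-positive stripes were mixed, with 3 of 5 measured higher, 2 lower and a median log2 difference of 0.285. Plcb3, a phospholipase C gene, was at 9.73 and 8.77 with clothianidin and at 8.74 and 8.37 with vehicle, and Gabbr2, a GABA-B receptor subunit gene, at 16.52 and 15.88 with clothianidin and 15.84 and 15.60 with vehicle. Both were highest on clothianidin replicate 6. The glutamate transporter gene Slc1a6 was at 13.42 and 13.21 with clothianidin and 13.52 and 13.23 with vehicle, and the groups overlapped. The log2 difference was 0.285 for the protein kinase C gene Prkcd and -0.32 for the sphingosine kinase gene Sphk1, which was at 4.67 and 4.77 with clothianidin and 4.53 and 5.55 with vehicle. The median of these 5 genes was -0.025 without clothianidin replicate 6 and 0.595 without clothianidin replicate 7. Dropping a vehicle array gave 0.40 (replicate 7) or 0.19 (replicate 9).

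Of the genes of zebrin-negative stripes 2 of 3 measured were higher and 1 lower, with a median log2 difference of 0.20 that was 0.11 without vehicle replicate 7. Plcb4, the phospholipase C gene of zebrin-negative Purkinje cells, was at 15.75 and 15.67 with clothianidin and at 15.50 and 15.52 with vehicle. The groups were apart by a small step, with a log2 difference of 0.20 (standard error 0.27). The transcription factor gene Ebf2 differed by -0.175 and the neurofilament gene Nefh by 0.315, and both overlapped. Stripe classes of so few genes were not tested against each other.

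**Figure D4:**
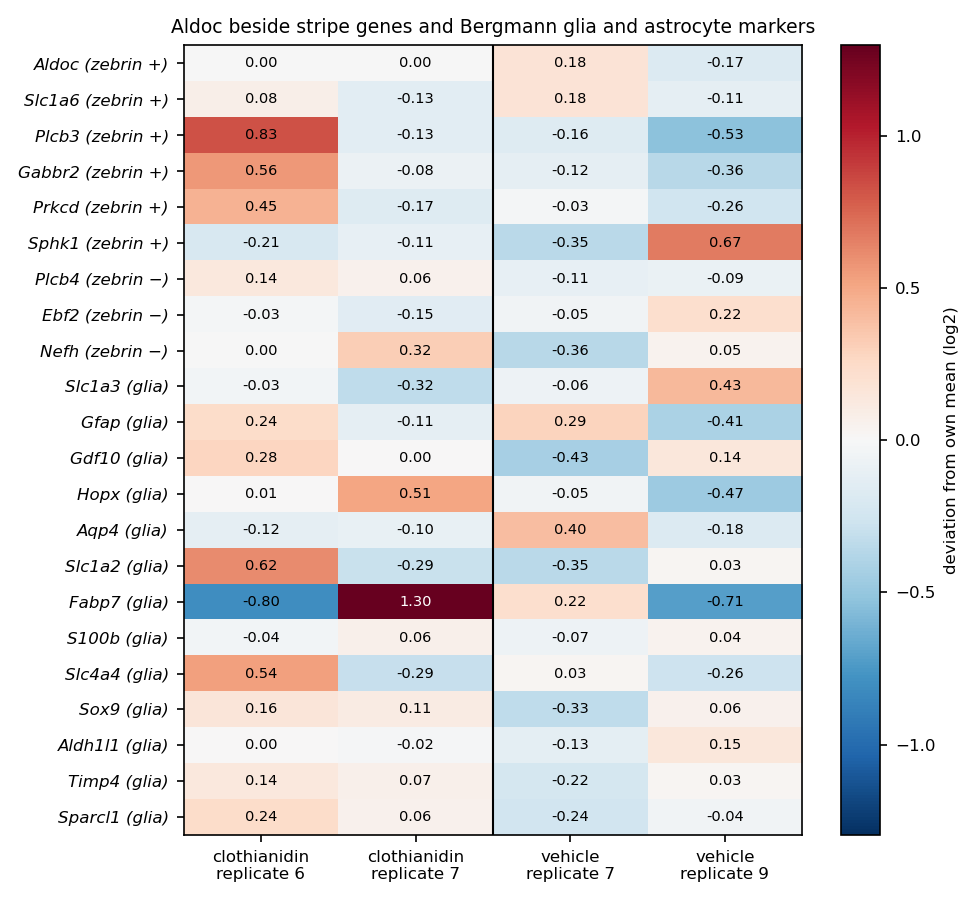
Deviation from the gene's own mean over the 4 arrays (log2 units) for genes of zebrin-positive and zebrin-negative stripes and for markers of Bergmann glia and astrocytes, with the clothianidin arrays left of the black line and the vehicle arrays right of it. Aldoc is near 0 on both clothianidin arrays, and Plcb3, Gabbr2 and Prkcd are highest on clothianidin replicate 6.

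Because Aldoc is also a glial transcript, glial markers were set beside it. Of 13 measured markers of Bergmann glia and astrocytes 10 were higher with clothianidin and 3 lower, with a median log2 difference of 0.24, and 0 passed limma over all probe sets, by adjusted p or at an unadjusted p under 0.05. That median was 0.075 when either clothianidin replicate 6 or vehicle replicate 7 was left out, and leaving out vehicle replicate 9 gave 0.12. The glutamate transporter gene Slc1a3 was at 15.71 and 15.42 with clothianidin and 15.68 and 16.17 with vehicle, and the filament gene Gfap at 10.03 and 9.68 with clothianidin and 10.08 and 9.38 with vehicle. The homeodomain protein gene Hopx was higher on both clothianidin arrays, at 11.98 and 12.48 with clothianidin and 11.92 and 11.50 with vehicle. The mean level of the list was 13.52 and 13.50 with clothianidin and 13.36 and 13.34 with vehicle. The share of the Aldoc signal that came from glia was not tested.

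Genes reported to need Rora in the mouse gave no common direction. Pcp2 and Pcp4 were higher as described, while Slc1a6 and the secreted morphogen gene Shh had log2 differences of -0.06 and -0.075. Shh was at 8.19 and 8.03 with clothianidin and 8.24 and 8.13 with vehicle, and its groups overlapped.

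The wider list held 24 measured Purkinje-enriched genes outside the set. Of these 14 were higher with clothianidin and 10 lower, and the median log2 difference was 0.075. Without overlap 8 were higher and 1 lower, beside 15.1% and 15.5% of all probe sets. None passed limma over all probe sets, and 2 had a limma unadjusted p under 0.05, beside 4.23% of all probe sets. They were Cacna1g, which encodes a T-type calcium channel, at 13.39 and 12.82 with clothianidin and 11.84 and 12.39 with vehicle (limma unadjusted p = 0.0174), and the cyclic GMP-dependent kinase gene Prkg1, at 9.27 and 9.03 with clothianidin and 8.53 and 8.42 with vehicle (limma unadjusted p = 0.0386). The P/Q-type channel gene Cacna1a was at 14.96 and 14.11 with clothianidin and 13.95 and 13.68 with vehicle. The transcription factor gene Bcl11a was at 8.65 and 8.63 with clothianidin and 8.14 and 7.94 with vehicle. These 4 were named for the smallest unadjusted p in the list, and all were higher. The 1 gene lower without overlap was Dab1, named after its values were seen. Dab1 was at 13.75 and 13.12 with clothianidin and 14.16 and 13.81 with vehicle, a log2 difference of -0.55. Cacna1a was highest on clothianidin replicate 6, and without that array the median of the list was -0.125. The median was 0.1775 without clothianidin replicate 7 or vehicle replicate 7, and -0.02 without vehicle replicate 9. The difference between this list and the set of 10 was not tested.

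Other cell types are given for comparison, and most of their medians moved with single arrays. Of 14 measured granule cell markers 10 were higher and 4 lower, with a median log2 difference of 0.19 that ranged from -0.095 without clothianidin replicate 6 to 0.345 without clothianidin replicate 7. Interneuron markers had 8 of 11 higher and a median of 0.04, which was -0.10 and 0.315 without those same arrays. General neuron genes had 6 of 11 higher and a median of 0.09, between -0.15 without vehicle replicate 9 and 0.24 without vehicle replicate 7. Housekeeping genes had 8 of 12 higher and a median of 0.085, between 0.0525 and 0.2375 without those vehicle arrays. All 10 measured oligodendrocyte markers were lower with clothianidin, with a median of -0.18 that was -0.335 without vehicle replicate 9, -0.3175 without clothianidin replicate 6, -0.1175 without clothianidin replicate 7 and -0.0875 without vehicle replicate 7. Among these lists 0 genes passed limma over all probe sets. A limma unadjusted p under 0.05 was reached by 2 of 14 granule cell markers, 1 of 12 housekeeping genes and 1 of 10 oligodendrocyte markers. No interneuron marker or general neuron gene reached it, and over all probe sets 4.23% did.

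Among regions next to the cerebellum, midbrain and forebrain markers mostly fell on the lower side in the clothianidin group. Of 7 measured 6 were lower and 1 was higher. The median of the list was -0.215, and it stayed negative when each array was left out in turn (-0.275 to -0.095). Without overlap 3 were lower and 0 higher, beside 15.5% and 15.1% of all probe sets. The 3 were Pax7, Tbr1 and Emx1, all below the array medians. Pax7 was at 3.35 and 3.38 with clothianidin and 3.49 and 3.44 with vehicle. The gap between the groups was 0.06 for Pax7, 0.06 for Tbr1 and 0.20 for Emx1. Tcf7l2, a transcription factor gene of thalamus and midbrain, was at 9.94 and 9.11 with clothianidin and at 11.70 and 9.69 with vehicle. Tcf7l2 stood out on vehicle replicate 7, where the mean level of the list was highest, at 6.46 and 6.41 with clothianidin and 6.90 and 6.59 on vehicle replicates 7 and 9. Leaving out Tcf7l2, a choice made after its values were seen, the mean of the other 6 was 5.885 and 5.963 with clothianidin and 6.103 and 6.075 with vehicle.

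The brainstem and cerebellar nuclei list had 4 of 9 higher, 5 lower and a median of -0.035, which ranged from -0.18 without clothianidin replicate 7 to 0.135 without vehicle replicate 9. Without overlap 3 were higher and 1 lower, beside 15.1% and 15.5% of all probe sets. Its mean level was 5.02 and 5.23 with clothianidin and 5.13 and 5.29 on vehicle replicates 7 and 9. The vesicular glutamate transporter gene Slc17a6 was at 8.02 and 8.13 with clothianidin and at 9.57 and 8.62 with vehicle (limma unadjusted p = 0.0214). Th, the tyrosine hydroxylase gene, went the other way, at 8.07 and 7.74 with clothianidin and at 7.03 and 6.93 with vehicle (limma unadjusted p = 0.0106). Which cells of the tissue gave the Th signal was not tested. The choline transporter gene Slc5a7 and the vesicular acetylcholine transporter gene Slc18a3 were also higher without overlap, by 0.41 and 0.095. Slc18a3 was named after its values were seen. Both were far below the array medians, with Slc18a3 near the lowest values of the arrays. Slc5a7 had means of 4.07 with clothianidin and 3.66 with vehicle, and Slc18a3 of 2.995 and 2.9. Signal over background is unknown, so whether steps at these levels are changes in the transcripts was not tested. The part of the markers of this list in the values of the Purkinje cell genes was not tested.

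Oligodendrocyte markers had their highest median deviation, 0.21, on vehicle replicate 7. Without vehicle replicate 7 the log2 differences of Calb1, Pcp2 and Pcp4 were 0.655, 0.83 and 0.775, against 0.66, 0.68 and 0.67 with all arrays. Microglia markers had 2 of 8 higher and a median of -0.12, between -0.235 without vehicle replicate 9 and 0.135 without clothianidin replicate 7. Endothelial markers had 3 of 8 higher and a median of -0.015, between -0.2875 without vehicle replicate 9 and 0.2125 without vehicle replicate 7.

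Vehicle replicate 9 was the lowest array for several lists. Its median deviation was -0.24 for general neuron genes and -0.235 for housekeeping genes, beside -0.15 for the 10 Purkinje cell genes. With vehicle replicate 9 left out, the median log2 difference of the Purkinje cell genes was 0.45. The values of Calb1 on the vehicle arrays differed by 0.01, and those of Pcp2 and Pcp4 by 0.30 and 0.20, with replicate 9 lower.

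**Figure D5:**
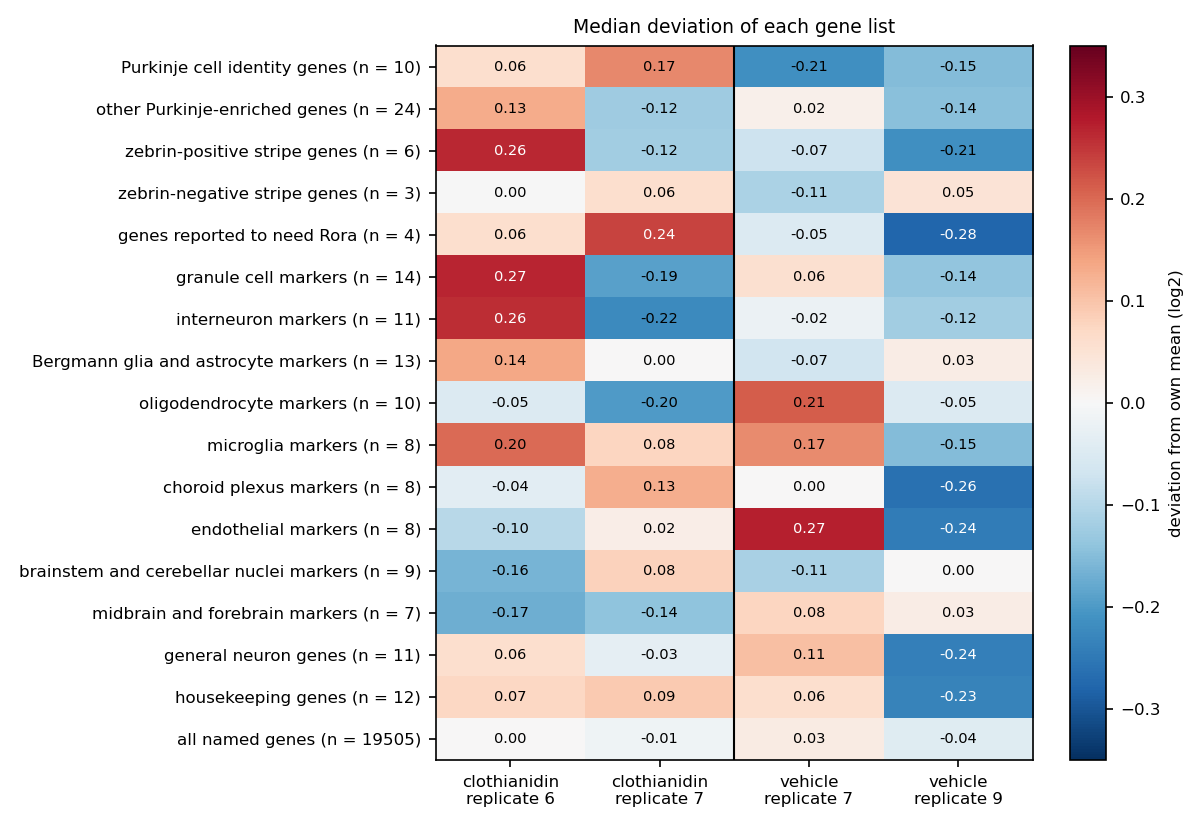
Median deviation of each gene list from the genes' own means over the 4 arrays (log2 units), with the clothianidin arrays left of the black line and the vehicle arrays right of it; n is the number of measured genes. The Purkinje cell identity genes are above 0 on both clothianidin arrays (0.06 and 0.17) and below 0 on both vehicle arrays (-0.21 and -0.15), while granule cell and interneuron markers have opposite signs on the clothianidin arrays.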

How the data were processed

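Total RNA from cerebellum was labelled with GeneChip WT kits and hybridised to Affymetrix arrays, 1 per sample, per the labels' protocols. The deposited log2 values are RMA summaries of probe sets, which the submitters' processing notes name as the authors' method. For RMA, version, settings and log base are not given in the sources used here, and base 2 was assumed. Depth does not apply, signal over background is unknown, and the number of arrays limits precision.

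Gene names came from the platform annotation, which can be old. RefSeq gene identifiers (GRCm38.p6) changed 0 symbols. Of 22206 probe sets 19572 had 1 symbol, 0 had several and 2634 were not named. Listed genes without a named probe set were not analysed here.

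All probe sets were fitted with limma 3.58.1 in R 4.3.3 (lmFit, eBayes, Benjamini-Hochberg at 0.05). The code was run on simulated data with variances drawn from its own fitted prior and changes larger than those of the 10 genes. That run checks the code and does not show whether differences of the size seen here would be found. Promoter letters were searched in RefSeq windows. Named were all 10 genes, all stripe genes and genes reported to need Rora, genes drawn from the other lists by smallest p or list position, and the 5 nearest profiles, leaving out predicted genes and clone names. The genes and lists were chosen with earlier results of these data known. Alternatives covered scaling, level filters, variance priors, probe set choice and leaving out each array.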

Additional observations from a re-analysis of the deposited data

How the results depend on the processing

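With 14 alternatives for each of the 10 genes, 133 of 140 values kept their direction, 7 turned, and 0 reached the adjusted threshold. The turns were in Aldoc, Rora and Foxp2. Aldoc was 0.02 after median centring and 0.04 after quantile normalization, and Rora was -0.0169 after quantile normalization. With 1 array left out, Aldoc ranged from -0.18 to 0.17, Rora from -0.14 to 0.32 and Foxp2 from -0.875 to 0.425. The median over the 10 genes was 0.23 after cyclic loess normalization and 0.2525 to 0.45 with 1 array left out. It was 0.46 with the mean over all probe sets of a gene, which changes only Rora, through its probe sets marked as unmapped. Over all probe sets with a mean of 14 or above, a range chosen after seeing the data, the median was 0.085. Between 8 and 9 genes had a higher mean with 1 array left out. Adjusted calls over all probe sets numbered 8 in the linear model without moderation, where the lowest adjusted p (2.43e-29) requires a residual spread near 0. With an array left out, the lone array of a group is taken to vary like the other group. The cause was not tested for these changes. Signal over background is unknown, so whether dim values such as those of Foxp2 are limited by it was not tested. No paired analysis was possible because the groups share only replicate number 7.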
